A study of Drosophila melanogaster with 4 samples.

Results

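The regions described here are the HP1b clusters of the X chromosome arm of Drosophila melanogaster, outside the last 2 Mb next to the centromere. They were taken from the authors' combined list of enriched clusters as those on X that end at or before position 20422827 of FlyBase r5, the genome release of the files. The rule gave 1491 of the 8426 combined clusters. The last cluster inside the limit lay at 20395058 to 20397096 and the first outside it at 20436176 to 20437218, and 81 combined clusters of X fell outside. By the same rule, 985 of the 5191 clusters of replicate 1 and 1235 of the 6337 clusters of replicate 2 lay on the arm.

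The clusters come from chromatin immunoprecipitation with sequencing (ChIP-seq), in which an antibody against HP1b pulls down crosslinked chromatin and the recovered DNA is sequenced. The material was larvae in the third instar, the last larval stage, of the wild-type strain Oregon-R, officially called Oregon-R-modENCODE. All samples share this strain and stage, the larvae were harvested from culture bottles, and the labels do not give their age in days, their number or their sex. There were 2 HP1b ChIP libraries and 2 Input libraries, and the values below come from the lists of the 2 ChIP libraries and the authors' combined list. Whether the 2 ChIP libraries came from separate collections is not stated, so their spread may be technical. The lists hold clusters and no reads, so the depth behind each value is unknown. With 2 libraries, an exact two-sided sign test cannot go below p = 0.5, so that test cannot pass a threshold of 0.05, and differences are set against the spread between the libraries.

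HP1b is one of the small family of heterochromatin protein 1 paralogues of Drosophila, along with HP1a and HP1c. These proteins carry a chromodomain, which in HP1a binds methylated histone H3, and a chromoshadow domain, through which they pair and recruit partners. HP1a is concentrated in heterochromatin around the centromeres and on chromosome 4, whereas HP1b is known from both heterochromatin and the gene-rich euchromatin of the arms. X is the sex chromosome, present as a single copy in males, where its transcription is raised by the dosage compensation complex. No genome of the release used by the files was at hand, so no sequence is printed and no gene is assigned to a cluster.

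HP1b clusters took up more of X than of any of the 4 autosomal long arms, each taken without its proximal 2 Mb. On X the covered share of bases was 12.3% by the list of replicate 1 and 17.0% by that of replicate 2, which averaged 14.6% ± 3.33 (SD, n = 2). Among the autosomal arms, 2L had the lowest share, 8.66% and 11.7% in the same order, and 2R the highest, 9.81% and 14.2%. Replicate 2 thus covered more of every arm, while X exceeded the pooled autosomal arms by nearly the same ratio in both libraries, 1.348 and 1.354. Its mean of 1.35 ± 0.00457 (SD, n = 2) lay above 1 by far more than the spread between the libraries. Set against single arms, the mean ratio was lowest against 2R, at 1.22 ± 0.0398 (SD, n = 2), and highest against 2L, at 1.43 ± 0.0207 (SD, n = 2). The combined list gave 19.6% of X and 14.2% of the autosomal arms.

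X held both more clusters and more wide ones. Replicate 1 had 48.2 clusters per Mb of X and replicate 2 had 60.5, where the autosomal arms together had 37.9 and 48.8, a ratio of 1.26 ± 0.0244 (SD, n = 2). The nearest arm by density was 2R, with 41.6 and 55.5 clusters per Mb. The typical cluster was of much the same size everywhere, with a median width of 2215 bp for X and 2185 bp for the autosomal arms in replicate 1, and of 2348 bp and 2267 bp in the other library. The difference lay in the upper part of the widths. At the 95th percentile, X clusters measured 4859 bp and 5565 bp, against 4214 bp and 4636 bp on the autosomal arms.

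**Figure D1:**
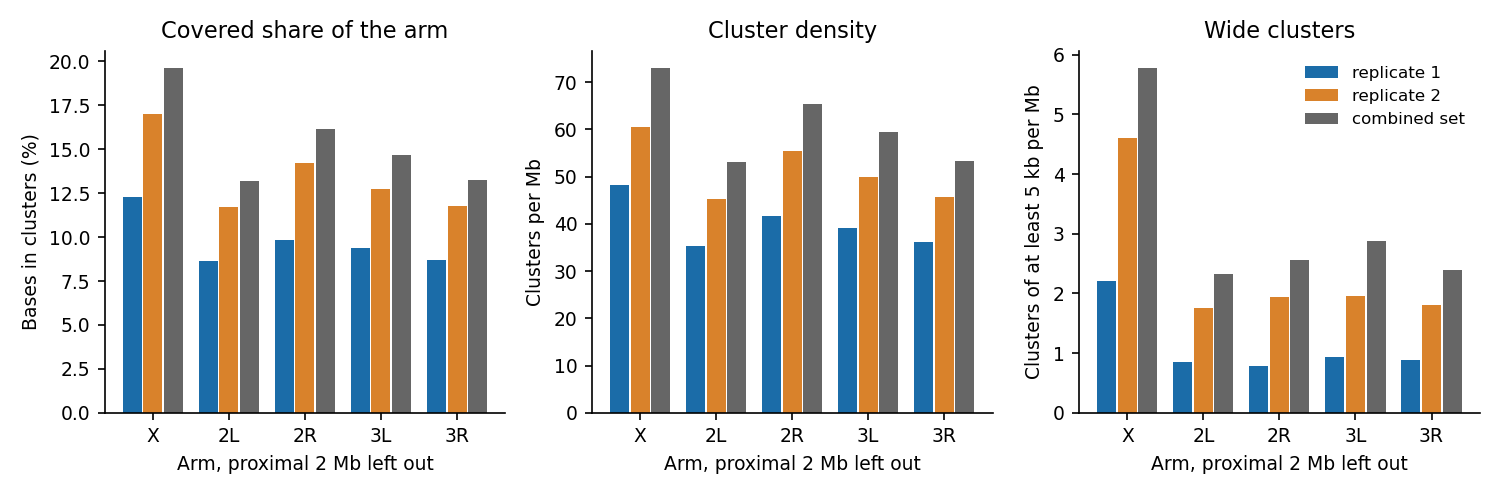
Covered share in percent of bases (left), clusters per Mb (middle) and clusters of at least 5 kb per Mb (right) for X and the 4 autosomal long arms, each without its proximal 2 Mb. Each bar is 1 list (replicate 1, replicate 2 or the combined set), so there are no error bars, and X has the tallest bar of each list in all 3 panels.

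Clusters of at least 5 kb were the class in which X stood furthest from the other arms. X held 45 of them by replicate 1, 94 by replicate 2 and 118 by the combined list, where they made up 7.91% of X clusters against 6.17% of all combined clusters of the genome. Per Mb, this came to 2.20 in replicate 1 and 4.60 in replicate 2. None of the 4 autosomal long arms exceeded 0.932 in replicate 1 or 1.95 in replicate 2. X had 2.50 ± 0.0452 (SD, n = 2) times the density of the autosomal arms. Clusters of at least 10 kb were few, 7 of the 1491 members, or 0.469% against 0.760% of all combined clusters of the genome. The genome share includes 19 such clusters of chromosome 4. The autosomal long arms held 10 among their 5088 combined clusters, a smaller share than that of X. The small chromosome 4, which is not among these arms, lay far beyond X, with 22.2 and 20.7 clusters of at least 5 kb per Mb and 35.2% and 30.6% of its bases covered.

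The excess of X could be followed through the width classes. In bases covered, X over the autosomal arms came to 1.21 ± 0.110 (SD, n = 2) for clusters under 2000 bp and 1.13 ± 0.00576 (SD, n = 2) for those from 2000 to under 3000 bp. It was 1.58 ± 0.0635 (SD, n = 2) for clusters from 3000 to under 5000 bp and 2.51 ± 0.00251 (SD, n = 2) for those of at least 5000 bp. Clusters of at least 5000 bp carried 25.5% of the difference in covered share by replicate 1 and 40.1% by replicate 2. Every class had a ratio above 1 in both libraries, and clusters under 5000 bp alone gave 1.25 ± 0.0290 (SD, n = 2).

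Neighbouring clusters lay closer together on X, which also had more clusters per Mb. Gaps are not a measure apart from density, since more clusters per Mb leave shorter gaps on average. Neither gaps nor shares of short gaps were compared at equal density. The median gap, counted as the bases between the end of a cluster and the start of the next, was 6616 bp for the list of replicate 1 and 4747 bp for that of replicate 2. On the autosomal arms the shortest median was that of 3R in replicate 1, at 8302.5 bp, and that of 2R in replicate 2, at 6558 bp. The median gap of X was 0.721 ± 0.0331 (SD, n = 2) times that of the autosomal arms. The combined list, which holds more clusters, had a median gap of 3996 bp on X and 5844 bp on the autosomal arms. Within X the gaps were spread over several orders of magnitude, from 4 to 259701 bp in one library and from 10 to 259504 bp in the other.

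Gap lengths were somewhat more uneven on X than on most autosomal arms. Their coefficient of variation was 1.72 and 1.87 on X, above 2R (1.56 and 1.61), 3L (1.60 and 1.75) and 3R (1.70 and 1.75) in both libraries. Against 2L, with 1.76 and 1.81, X was lower in replicate 1 and higher in replicate 2. Gaps under 2000 bp made up 22.7% of X gaps by replicate 1 and 28.2% by replicate 2. The autosomal arms ranged from 16.4% to 20.8% and from 21.9% to 24.0%, so X had the largest share in each library. At the other end, gaps over 50 kb were 9.15% and 6.32% of X gaps, yet they took up 43.8% and 35.9% of the arm. Here X did not stand apart, as 2R had 46.2% and 33.6% of its length in such gaps.

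**Figure D2:**
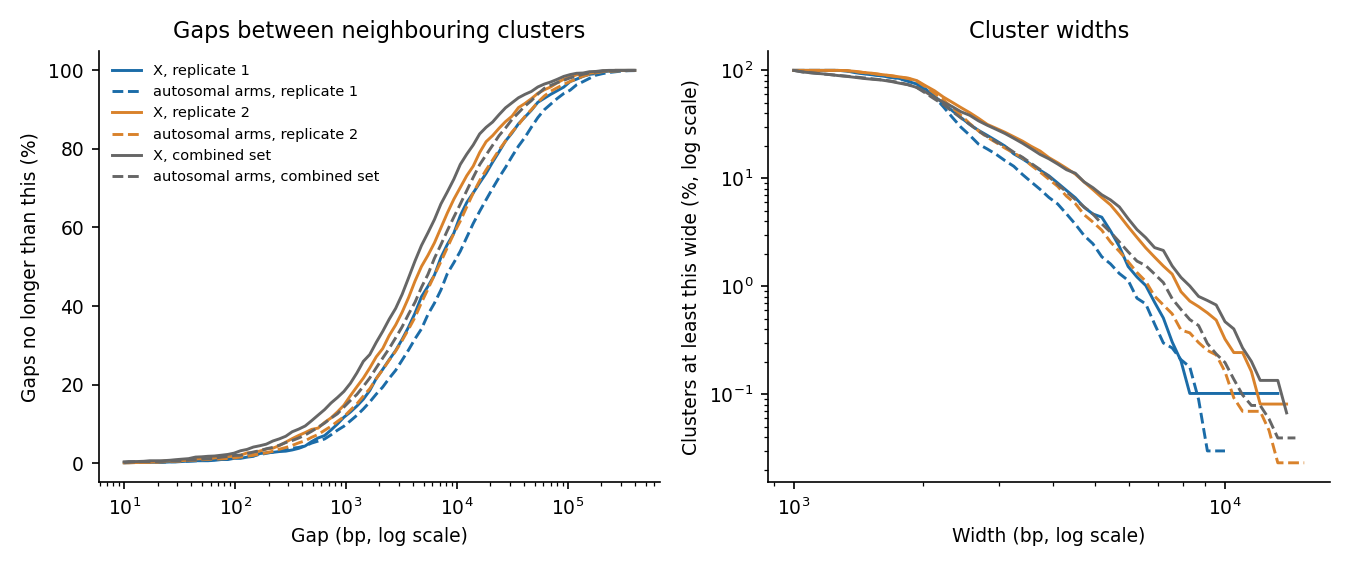
Left, percentage of gaps between neighbouring clusters that are no longer than the gap on the x axis (bp, log scale). Right, percentage of clusters at least as wide as the width on the x axis (bp, both axes log). Solid lines are X and dashed lines the autosomal arms, with 1 colour for each list. Within a colour, the X gap curve lies to the left at the median, 6616 against 8890 bp in replicate 1. Curves can cross at short gaps, as in replicate 1 with 3.76% for X against 4.00% at 374 bp. The solid width curves lie above the dashed ones at 5 kb, with 4.57% against 2.29% in replicate 1.

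A larger share of the clusters of X lay in runs, though X also had 1.26 times as many clusters per Mb as the autosomal arms. A fixed distance takes in more neighbours on a denser arm, and runs were not compared at equal density. Where a run was counted as neighbouring clusters under 2000 bp apart, the 1491 members fell into 1012 runs, of which 694 were single clusters, 214 were pairs and 104 held 3 or more. Those 104 runs held 369 clusters, or 24.7% of the members. On the autosomal arms the share in such runs was 17.2% to 19.8% in the combined list. In replicate 1 it was 14.1% on X against 7.84% to 12.5%, and in replicate 2 it was 20.7% against 13.4% to 17.3%. The longest single run was not always on X, since in replicate 1 it held 8 clusters on 2L and 6 on X.

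The 2 longest runs by number held 8 clusters each. The first ran from 1492314 to 1524026 (31.7 kb), with scores of 0.39 to 0.77, and clusters of replicate 1 covered 44.6% and those of replicate 2 54.0% of it. The score is the authors' own log2 value for each cluster. It serves here for description and ranking inside 1 list, apart from the comparison of matched clusters between the libraries. The second ran from 5773378 to 5803192 (29.8 kb), with scores up to 1.73, and was covered to 54.0% and 80.3%. A run of 7 clusters lay at 14956316 to 14984368 (28.1 kb), covered to 50.0% and 76.2%. Runs of 6 lay at 1529084 to 1564590 (35.5 kb) and at 12624586 to 12651428 (26.8 kb). Of these 5 runs, 2 were near neighbours, since the run of 6 at 1529084 began 5.06 kb after the end of the run of 8 at 1492314. The stretch from 1500001 to 1600000, chosen after its values were seen, was the most covered of the 204 full windows of 100 kb in replicate 1 (40.0%) and in the combined list (57.7%). Replicate 2 had 38.9% there, and its own most covered window was 13200001 to 13300000, with 43.1%.

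Isolated clusters were narrower and scored lower than clustered ones. Of the members, 502 had a neighbour within 1000 bp and 132 had none within 10 kb. Their median scores in the combined list were 0.61 and 0.45. Isolated clusters also had the lowest median score within each library. In replicate 1 the median score was 0.77 for clusters with such a near neighbour and 0.65 for isolated ones, and in replicate 2 it was 0.99 and 0.68. Clusters with a nearest neighbour between 1 and 10 kb away had 0.78 and 0.93, so in replicate 1 they did not lie below those with a nearer one. Median widths went the same way, at 2230 and 2095 bp in the first library and 2449 and 2105 bp in the second. Both libraries touched 45.5% of the isolated members and 61.4% of those with a near neighbour, where 51.3% of all combined clusters of the genome were touched by both.

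Along the arm, HP1b clusters had rich and poor stretches. The covered share followed the order of the windows only weakly, with a Spearman rho of 0.12 and 0.13 over 20 windows. When the arm was cut into 5 equal parts, the covered share from the distal to the proximal part was 11.5%, 12.6%, 11.8%, 13.2% and 12.2% in replicate 1. In replicate 2 it was 16.6%, 17.6%, 16.0%, 17.4% and 17.3%. The part with the highest share was the fourth in replicate 1 and the second in replicate 2, while the fourth exceeded the third in both. Over the 20 full windows of 1 Mb, the lowest, median and highest covered share were 8.10%, 12.0% and 18.1% in replicate 1, and 12.0%, 17.5% and 24.3% in replicate 2. The most covered window held 2.13 ± 0.148 (SD, n = 2) times the share of the least covered one. Replicate 2 had the larger share in all 20 windows. The ranking of windows was close between libraries, with a Spearman rho of 0.953 over 20 windows, a description of lists that share the same genome and antibody.

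In places rich and poor windows lay side by side, while elsewhere neighbouring windows were alike. The windows starting at 3000001 and 4000001, for example, had 9.25% and 8.71% in replicate 1, and 12.2% and 12.0% in replicate 2. In the window from 11000001 to 12000000, replicate 1 covered 17.3% and replicate 2 covered 21.7%. Its neighbour on the distal side had 8.56% and 13.7%, and that on the proximal side had 10.4% and 14.0%. The next rich window, from 13000001 to 14000000, had 16.9% and 20.5%, followed by 8.10% and 12.3% in the window after it. The 5 most covered windows were the same 5 in both libraries, and of the 5 least covered 4 were shared. Replicate 1 had its least covered window at 14000001 to 15000000 and replicate 2 at 1 to 1000000, where replicate 1 had 8.10% as well.

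The most covered window of both libraries, 6000001 to 7000000, combined many clusters with wide ones. It held 63 clusters in replicate 1 and 75 in replicate 2, against 37 and 40 in the window next to it on the proximal side. Its clusters of at least 5 kb numbered 6 and 9, and in the combined list it held 11, the highest number of any window. The window from 1000001 to 2000000 reached a similar share, 15.7% and 22.4%, with only 1 and 4 such wide clusters but 63 and 84 clusters in all. Every window held at least 1 wide cluster in the combined list, and the first window held none in either replicate.

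**Figure D3:**
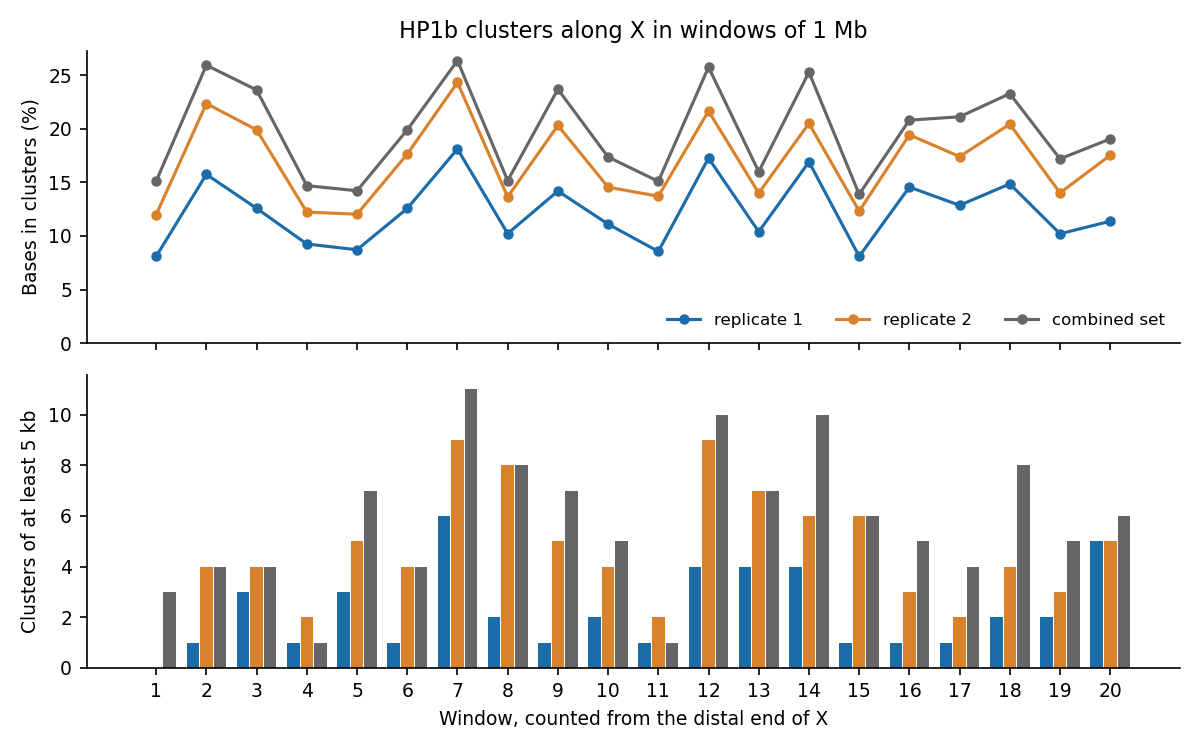
Top, percent of bases in clusters for the 20 full windows of 1 Mb of X, counted from the distal end. Bottom, number of clusters of at least 5 kb per window. Colours give the list, with no error bars as each point or bar is 1 list. The lines rise and fall together, with the highest point of all 3 lists in window 7 (18.1% and 24.3% in the replicates).

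Long stretches of X carried no cluster in any of the 3 lists. The 5 longest measured 232 kb (14142718 to 14374811), 200 kb (12141416 to 12341122), 199 kb (4982192 to 5181159), 194 kb (19859145 to 20052668) and 168 kb (11050967 to 11218495). The first of them lies in the window that was least covered in replicate 1. The stretch of 168 kb lies wholly within the rich window from 11000001 to 12000000, whose clusters therefore lay in the remainder of it. In windows of 100 kb, 16 of 204 were empty in replicate 1, 10 in replicate 2 and 7 in all 3 lists.

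Cluster scores were higher on X than on every autosomal arm over most of their range, though not at the very top. At the 10th percentile the X score was 0.46 and 0.43 in the 2 libraries, while the 4 autosomal arms lay at 0.36 to 0.38 and 0.34 to 0.37. The difference from the pooled autosomal arms was 0.08 ± 0.00594 (SD, n = 2). At the 25th percentile it was 0.09 ± 0.0105 and at the 75th percentile 0.11 ± 0.000723 (SD, n = 2 each). X exceeded all 4 autosomal arms in both libraries from the 1st to the 90th percentile. At the 95th percentile the difference was 0.06 in replicate 1 and -0.00437 in replicate 2, so there the libraries did not share a direction. At the 99th percentile X was higher by 0.11 in replicate 1 and by 0.03 in replicate 2, where it did not exceed all 4 autosomal arms.

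Weak clusters were correspondingly scarce on X. The lowest 25% of scores of each whole list held 15.6% of the X clusters of replicate 1, where it held 29.8% of those of the autosomal arms. For replicate 2 these shares were 17.2% and 28.3%. Per Mb, X had 0.710 ± 0.0598 (SD, n = 2) times as many clusters of that class as the autosomal arms, the only one of 4 equal score classes with a ratio under 1. In order of rising score, the ratios of the other classes were 1.57 ± 0.148, 1.39 ± 0.0264 and, for the highest 25%, 1.50 ± 0.0498 (SD, n = 2 each). Above the lowest class the ratio thus did not rise steadily with score in either library. Even among clusters under 2000 bp, the median score of X was 0.49 and 0.45, against 0.41 and 0.39 on the autosomal arms. In the top 10% of scores, X had 12.2% of its clusters by replicate 1, 11.3% by replicate 2 and 10.9% by the combined list, where the whole lists have 10.0% by construction. The pooled autosomal arms had 10.3%, 10.1% and 10.3% in the same order. X did not stand apart here, as 3R had 10.5%, 12.2% and 11.2%, above X in replicate 2 and in the combined list.

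**Figure D4:**
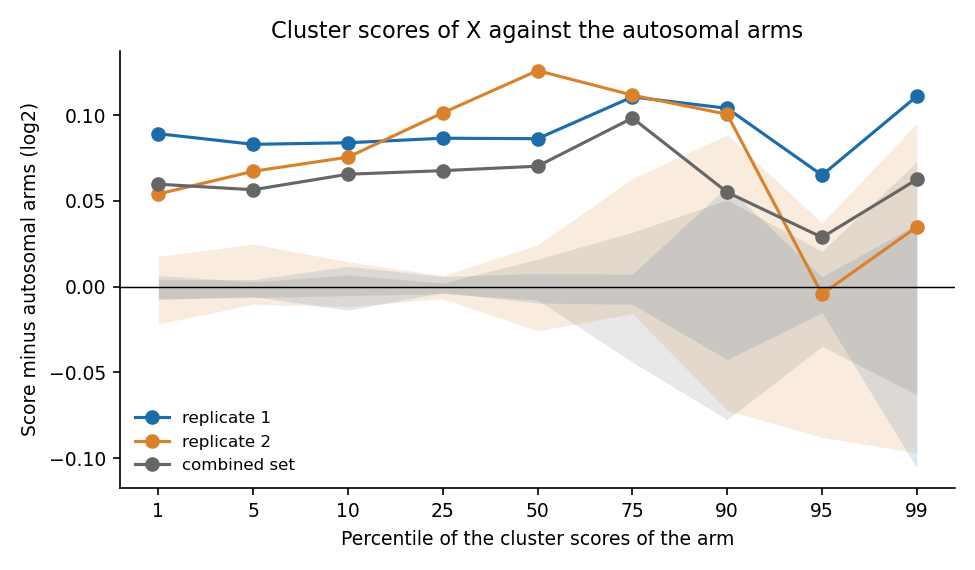
Score of X minus score of the pooled autosomal arms (log2) at percentiles of the cluster scores of the arm, for the 3 lists. Shaded bands span the 4 autosomal arms of the same list around their pooled value. The X lines lie above the bands up to the 90th percentile, at 0.08 for replicate 1 and 0.08 for replicate 2 at the 10th, and replicate 2 reaches -0.00437 at the 95th.

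Most members were seen in both libraries, more often where they were wide or of high score. Both libraries touched 860 of the 1491 members by at least 1 bp, or 57.7% (95% Wilson interval 55.2 to 60.2, counting error only), where the share over all combined clusters was 51.3%. Replicate 2 alone touched 338 (22.7%, against 20.6% overall), replicate 1 alone 64 (4.29%, against 6.52%) and neither 229 (15.4%, against 21.6%). The autosomal arms without their proximal 2 Mb had 58.9% touched by both and 13.6% by neither, with 23.4% for replicate 2 alone and 4.07% for replicate 1 alone, so X lay close to them in each class. The members touched by both carried 73.0% of the covered bases of the arm.

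Narrow members rarely had support from both libraries, though a wide cluster is touched more easily by any overlap and the combined score is not independent of the replicates. In the narrowest 25% of the members, 1001 to 1789 bp, 3 of 373 were touched by both and 216 by neither. The next 25%, 1791 to 2241 bp, had 182 of 375 touched by both and 9 by neither. In the widest 25%, from 3123 bp, 356 of 373 were touched by both and 1 by neither. By score, the lowest 25% had 35 of 373 touched by both and the highest 25% had 366 of 373. All 118 members of at least 5 kb were touched by both, where 98.1% of such combined clusters of the genome were. Replicate 1 saw 79 of these as 1 cluster and 39 as several, and replicate 2 saw 92 as 1 and 26 as several. The narrowest cluster of either replicate list measured 1301 bp, and 141 of the 229 members touched by neither were narrower than that.

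**Figure D5:**
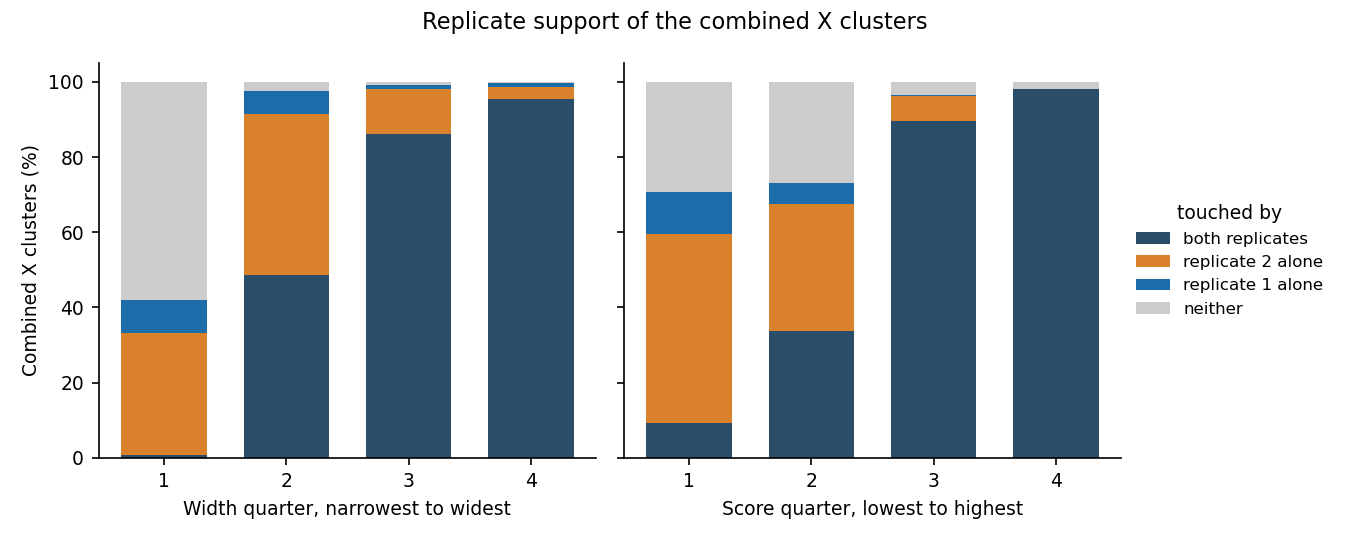
Percentage of the combined X clusters touched by both replicates, by 1 of them or by neither, in 4 equal classes of the members by width (left) and by score (right). In the narrowest class 3 of 373 clusters were touched by both, and in the widest 356 of 373.

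Where clusters of the 2 libraries overlapped, their midpoints mostly lay close together. On X, 913 of 985 replicate 1 clusters (92.7%, against 87.8% of the whole list) were touched by replicate 2, and 877 of 1235 replicate 2 clusters (71.0%, against 70.7%) were touched by replicate 1. The combined list touched 99.5% of the X clusters of replicate 1 (against 98.8%) and 98.6% of those of replicate 2 (against 98.3%). Matching each cluster once by its largest overlap gave 874 pairs, whose midpoints differed by a median of 95.5 bp and by up to 266 bp in 75% of pairs. The 95th percentile of the difference was 1079 bp. Since a pair has to overlap, the matching itself limits how far its midpoints can differ. These pairs held 88.7% of the X clusters of replicate 1 and 70.8% of those of replicate 2. On the autosomal arms the shares were 90.2% and 70.0%, with a median midpoint difference of 72.5 bp, so X was not placed more closely. Replicate 2 had the wider cluster in 736 of the 874 pairs, with a median ratio of 1.11, and the higher score in 743. The median score difference, replicate 2 minus replicate 1, was 0.32 on X and 0.32 on the autosomal arms. As the scaling of the score is not given, this difference only describes the lists. The 72 replicate 1 clusters of X not touched by replicate 2 had a median score of 0.55 and a maximum of 1.09. The 358 replicate 2 clusters of X not touched by replicate 1 had a median of 0.53 and a maximum of 1.42. Of the 50 highest-scoring X clusters of replicate 1, 37 were touched by one of the 50 highest of replicate 2.

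The 10 highest-scoring members among those touched by both libraries had combined scores of 2.66 to 3.19. Support in both libraries was part of their selection, and within it each of the 10 met 1 cluster of either library. Clusters of replicate 1 covered 70.1% to 99.9% of each. The first, 19412928 to 19418710, scored 2.92 in replicate 1 and 3.72 in replicate 2, the latter being the highest score of X in that library. The second, at 5222218 to 5225196, had 2.95 and 3.50, and the third, at 1772462 to 1775758, had 2.94 and 3.40, so these 3 held the top 3 ranks of X in each library. The next of the 10, at 2596796 to 2599684, had 2.70 and 2.91. Below them the order differed between the libraries. The member at 12643680 to 12651428, for example, ranked at place 7 in replicate 1 and at place 27 in replicate 2, with scores of 2.65 and 2.67. The remaining 5 lay at 11607450 to 11612072, 9476280 to 9480982, 2027452 to 2033156, 19556010 to 19563778 and 18550150 to 18552922.

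Some of these strong members had a close neighbour, which was common on the arm. Of all members, 502 (33.7%) had a neighbour under 1000 bp away. The third lay 39 bp from the next combined cluster, the second 119 bp and the one at 12643680, which closes a run of 6, 31 bp. The first stood 4.00 kb from its nearest neighbour and the one at 19556010 stood 8.69 kb from its own, the farthest of the 10.

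The 10 widest members reached over 9 kb, and each had a combined score above the median of all members (0.56). The widest, at 8782160 to 8796580 (14.4 kb), was 1 cluster in both libraries, which covered 95.7% and 100% of it, with scores of 1.34 and 1.68. The next, at 17184014 to 17197492 (13.5 kb), was broken into 3 clusters in replicate 1 and 2 in replicate 2, covering 86.1% and 93.8%. The third, at 4823236 to 4835184 (11.9 kb), was 2 clusters in replicate 1 and 1 in replicate 2. Then came 12794122 to 12805118 (11.0 kb), 12556168 to 12567078 (10.9 kb), 11691978 to 11702672 (10.7 kb) and 7595910 to 7605958 (10.0 kb). The last 3 of the 10 were 9041826 to 9051670, 7824426 to 7834160 and 1531714 to 1541346, of 9845, 9735 and 9633 bp. Combined scores of the 10 ranged from 0.58 to 1.54, and none of them was among the 10 highest-scoring members. Across the 1491 members, width and score still rose together, with a Spearman rho of 0.732. It was 0.785 over the 985 X clusters of replicate 1 and 0.774 over the 1235 of replicate 2, which are neighbours on 1 arm and not independent.

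A few members of very high score had no support from either library. The 5 highest of these lay at 17012354 to 17013354, 2202882 to 2203882, 7375378 to 7376378, 801602 to 802618 and 8188464 to 8189758. In that order they scored 3.05, 2.47, 1.76, 1.60 and 1.30 in the combined list. The first ranked at place 4 among all members. All 5 were narrow, from 1001 to 1295 bp, under the narrowest cluster of either replicate list. The score of the first was shared exactly by 11 combined clusters, all 1001 bp wide, of which 8 lay off the long arms.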

How the data were processed

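The submitters' processing notes name Bowtie 0.12.7. No source used here names the program that called the clusters, nor the cutoffs it applied. Clusters are on FlyBase r5, per the file headers, and were called per library in 2 files. How the third list, a replicate set, was combined is not given, and it is not independent of the replicates. Each deposited row carries 1 log2 score by the authors, whose numerator and scaling are not given. Base 2 is an inference: among scores shared by 3 or more combined clusters, 437 pairs were spaced as base-2 logarithms of simple fractions would be (tolerance 1e-06), against 2 pairs for natural and 11 for base-10 logarithms. Rows marked as depletion (none on X) were dropped, and no other filter was used.

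Libraries were grouped by their titles. Ratios are means over 2 libraries with SD, and Wilson intervals are at 95%. Touching means an overlap of at least 1 bp. Computation used Python 3.11.15, pandas 2.3.3, NumPy 2.4.6, SciPy 1.17.1 and statsmodels 0.14.6, and the functions were tested on simulated data. The members, lists and comparisons were chosen with earlier results of these data known. The rule for regions to name took, on X, the 10 highest-scoring and the 10 widest combined clusters touched by both replicates, the 5 longest stretches empty in all 3 lists, the most and least covered 1-Mb windows, the 5 runs with most clusters and the 5 highest-scoring clusters touched by neither replicate, and the clusters on either side of the limit. The gene table at hand is of another release, so no gene or sequence was assigned.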

Additional observations from a re-analysis of the deposited data

How the results depend on the processing

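A total of 51 alternatives were tried. Only the ratios of X to the autosomal arms could reverse, that is, cross 1. None did, with 10 alternatives for the covered share, 7 for wide clusters and 4 for the median gap. The other results had no opposite direction or, as for the most to the least covered window, cannot fall below 1. Of the 41 not set up by leaving out a replicate, 13 stayed within their tolerance and 28 moved beyond it. The tolerance was 1 SD between replicates or, for a share, its 95% Wilson interval. The 41 include the median gap and median width of each single replicate list, set against an SD from those same lists. Alternatives for wide clusters, for the median gap ratio and for clusters under 5000 bp were chosen after seeing the data. With 1 replicate left out, the covered share ratio of X to the autosomal arms ranged from 1.348 to 1.354, the ratio in wide clusters from 2.47 to 2.54, the median gap ratio from 0.697 to 0.744, the ratio of the most to the least covered window from 2.03 to 2.24, and the share of members touched from 62.0% (replicate 1 list) to 80.3% (replicate 2 list), which by construction asks for 1 library only. Either of 2 values falls inside 1 SD of their average whatever they are, so the ranges of the ratios say nothing about stability. The covered share ratio was 1.38 in the combined set, 1.256 by clusters per Mb, 1.56 in the higher-scoring 50% of each list, 1.256 over whole arms, 1.364 with the proximal 4 Mb left out, 1.39 without 2R, 1.356 after merging clusters under 1000 bp apart and 1.25 for clusters under 5000 bp alone. The share touched by both was 54.9% with 50% of the combined cluster covered, 52.3% with reciprocal 50%, 65.2% among combined clusters at least as wide as the narrowest replicate cluster and 60.9% after merging. The median gap was 6616 bp in the replicate 1 list, 7113 bp in the higher-scoring 50% and 5617 bp after merging. The median width was 2348 bp in the replicate 2 list, 2849 bp in the higher-scoring 50%, 2372 bp among clusters at least as wide as the narrowest replicate cluster and 2459 bp after merging. The window ratio was 1.90 in the combined set, 3.61 in 500-kb windows, 1.31 in 2-Mb windows and 3.51 in the higher-scoring 50%. The ratio in wide clusters was 2.28 in the combined set, 2.01 for clusters of at least 4000 bp, 2.35 for clusters of at least 7000 bp and 1.84 after merging, and the median gap ratio was 0.684 in the combined set. Causes of these shifts were not tested. No paired analysis was possible because samples of Input, with which the ChIP replicate numbers could pair, were not analysed here, although X and the autosomal arms were compared within each library. Without read counts, the effect of depth on weak or narrow clusters was not tested.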

Other observations

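On X, every start and end of a combined cluster was an even number, whereas 49.2% of starts in replicate 1 and 47.1% in replicate 2 were even. The narrowest combined clusters measured 1001 bp, and 131 combined clusters had exactly this width, 9 of them among the X members. The most isolated X member, chosen after its values were seen, lay at 19857938 to 19859144, 64.7 kb from its nearest neighbour and at the edge of the empty stretch of 194 kb, and neither replicate touched it.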
